A study of Mus musculus with 14 samples.

Results

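CT26, a mouse colon carcinoma cell line, was compared with mouse colon. The members are the 3 arrays whose labels name CT26 and the 3 whose labels name colon, out of 14 arrays in the series. The other 8 arrays hold small intestine, adenomas and the tissue beside them, and they are used here only to place CT26 among tissues. CT26 was obtained from ATCC and grows as a culture of 1 line, so the group has no other line behind it, and nothing in the labels says whether its 3 samples were separate cultures. The colon samples are whole tissue of C57BL/6J mice by their labels, with all the layers of the organ, although the study's methods speak of mucosa and its list of samples places 1 colon sample under an ApcMin/+ mouse without saying which. That list gives BALB/c for CT26, so line, strain and culture cannot be told apart from the loss of tissue. The p-values measure the spread between these samples, which may be technical.

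Colon is built from an epithelium on a connective tissue core, with smooth muscle, nerves, vessels and many leukocytes. Its epithelial cells are held together by adherens and tight junctions, carry keratins 8, 18, 19 and 20 as their cytoskeleton, and are divided into absorptive colonocytes, mucus-making goblet cells, hormone-making enteroendocrine cells and tuft cells, all renewed by stem cells that depend on Wnt signalling. A carcinoma line is grown free of stroma and immune cells, so genes of those cells are seen in it only where the line itself expresses them, whereas genes of the epithelium belong to the lineage from which it arose. In whole tissue, fewer cells of a type and less RNA per cell cannot be told apart.

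Levels are log2 signals after subtraction of background, relative to the 75th percentile of the array, so that 0 is the 75th percentile. Background lay at a different level on each array. The lowest level well above background ranged from -6.067 on CT26 replicate 3 to -3.617 on colon replicate 3, and values below that of their array are at background. The share of probes well above background ranged from 46.8% to 58.2% per array, and the small number of arrays limits the precision. A gene was read from its brightest tested probe and called when limma gave an adjusted p of at most 0.01 and a log2 difference (CT26 minus colon) of at least 1.2 in size. Where no array of the dimmer group was well above background, the change is written as "at least". The brighter mean is then set against a floor, taken on each array as the lowest signal well above background or, if brighter, that of the probe itself. Some undetected probes lay above the lowest detected signal of their array, so these bounds are approximate. The arrays lay on 2 slides, each with both groups.

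Colon replicate 3 stood apart from the other colon arrays. Over the 20832 probes well above background on all arrays it had correlations of 0.951 to 0.969 with the small intestine arrays and of 0.934 to 0.938 with colon replicates 1 and 2, which had one of 0.985 with each other. The median level of 12 colonocyte genes was 4.77 and 5.03 on colon replicates 1 and 2 and -2.44 on replicate 3, against -2.15 to -2.00 on the small intestine arrays. For 10 genes of small intestinal enterocytes it was -2.38, -2.16 and, on replicate 3, 5.65. Replicate 3 also had the lowest share of probes well above background. Its median level over 6 genes of strain and sex, most of them on the Y chromosome, was -1.23, against -6.58 and -7.19 on replicates 1 and 2. The colon mice may therefore differ in sex. Results that rest on replicate 3 are given with and without it.

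**Figure D1:**
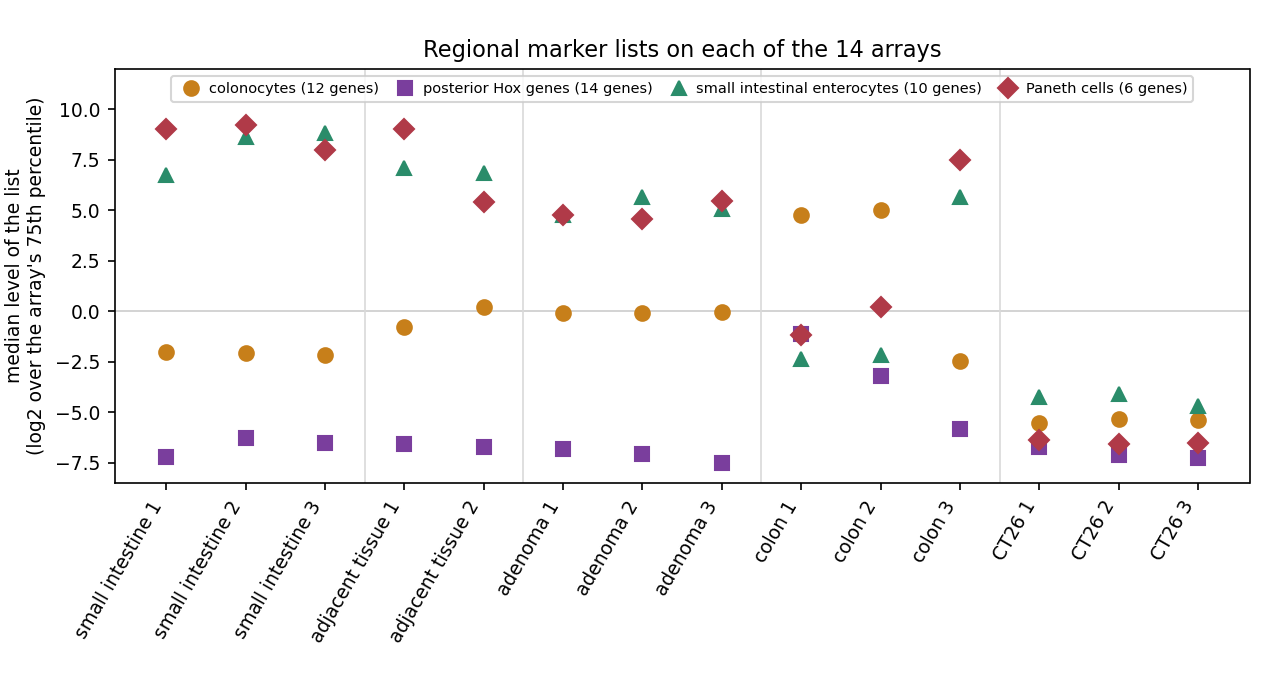
Median level (log2 over the array's 75th percentile) of 4 marker lists on each of the 14 arrays, with 1 point per list and array. Colonocyte genes are near 5 on colon 1 and 2 but at -2.44 on colon 3, where genes of small intestinal enterocytes (5.65) and Paneth cells (7.50) are far above colon 1 and 2, and on the CT26 arrays all 4 lists lie at or below -4.07.

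Of 14946 genes tested, 3416 (22.9%) were higher in CT26 and 2901 (19.4%) were lower. A further 7037 genes had a probe on the array and none that passed the filter on dim signals. Without colon replicate 3, 15856 genes were tested, and 3517 (22.2%) were higher and 3666 (23.1%) lower. For each gene called with all arrays, the CT26 arrays did not overlap the colon arrays. With 3 arrays in each group the thresholds nearly require this, so it is no further support for the calls. Of the genes that fell, 1426 (49.2%) were well above background on no CT26 array, 437 on 1 or 2 and 1038 on all 3, where the median size of the difference was 3.02 (log2). Of the genes that rose, 227 (6.6%) were undetected on every colon array and 2825 were measured on all 3, with a median size of 2.05. Where a list median below includes genes undetected in CT26, a second value counts each of them at its bound.

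The median gene tested was 0.36 higher in CT26 on the log2 scale. This depends on the scaling. With arrays centred on their median in place of the 75th percentile, the median gene lay at -0.15 and 1942 genes were higher and 3377 lower, so that 36.5% of the calls were in the higher direction against 54.1%. That share was 42.6% with every probe tested and 73.1% with probes well above background on all 6 arrays. The 0.36 of all genes is the value against which the list medians below are to be read. List counts are to be read against the 22.9% of all genes tested that were higher and the 19.4% that were lower. With slide as a block, 2339 genes were higher and 2610 lower. On slide 1, which held 1 colon and 2 CT26 arrays, the counts were 2129 and 2794, and on slide 2, which held 2 colon arrays (replicate 3 among them) and 1 of CT26, they were 189 and 1063.

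Most genes of the epithelium were far lower in CT26. All 16 genes of epithelial junctions and keratins fell, with a median difference of -10.93 (log2), or -10.50 with bounds. On each CT26 array all 16 were below every one of the 11 tissue arrays, adenomas included, against 22.2% of all genes tested. Epcam, an adhesion molecule of epithelial cells, had levels of 5.42, 5.12 and 6.13 on the colon arrays and of -6.60, -6.49 and -6.20 on the CT26 arrays, where it was not well above background. It was at least 1830-fold lower (limma adjusted p = 5.92e-07). Cdh1, which encodes E-cadherin of the adherens junction, had levels of 5.37, 5.13 and 5.18 in colon and of -6.56, -7.09 and -7.27 in CT26, at least 1450-fold lower (limma adjusted p = 5.42e-07). For both genes the groups did not overlap, and the CT26 values are at background.

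The keratins did not fall alike. Krt19 had levels of 8.48, 8.23 and 8.33 in colon and was well above background on no CT26 array, at least 12600-fold lower (limma adjusted p = 5.42e-07). Krt8 fell from 9.12, 8.77 and 9.93 to -5.31, -3.79 and -4.11, with a difference of -13.67 (standard error 0.49, limma adjusted p = 1.26e-06), and was well above background on 2 of 3 CT26 arrays. Krt18, the partner with which keratin 8 forms filaments in simple epithelia, stayed bright. Its levels were 7.91, 7.94 and 7.63 in colon and 5.77, 4.92 and 5.05 in CT26, a fall of 5.99-fold (limma adjusted p = 0.000484), the smallest of the list. Among the claudins of the tight junction, Cldn7 fell by 10.64 on the log2 scale (standard error 0.422, limma adjusted p = 1.79e-06) and was still measured on all CT26 arrays, at -2.69, -2.76 and -2.86. Cldn3 was at least 3650-fold lower (limma adjusted p = 5.42e-07).

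Transcription factors of the intestine fell in 7 of 10 cases, with a median of -7.54 (-7.50 with bounds). Hnf4a, a nuclear receptor that maintains enterocyte identity, was at 7.02, 6.99 and 7.63 in colon and undetected in CT26, at least 5760-fold lower (limma adjusted p = 5.42e-07). Cdx1 was at least 3760-fold lower (limma adjusted p = 8.33e-07). Cdx2, the homeobox factor that specifies the intestine, fell from 4.44, 5.23 and 5.61 to -3.68, -2.50 and -3.36, which is 309-fold (limma adjusted p = 6.28e-06), and remained measurable on all CT26 arrays. The Krüppel-like factors differed from these. Klf4 had levels of 5.21, 5.66 and 5.53 in colon and of 4.72, 4.32 and 4.52 in CT26 (difference -0.95, limma adjusted p = 0.025), and Klf5 had 5.44, 4.92 and 4.98 against 4.60, 2.72 and 3.33 (difference -1.56, limma adjusted p = 0.0297). Neither passed the thresholds, and both stayed above the 75th percentile of their arrays.

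**Figure D2:**
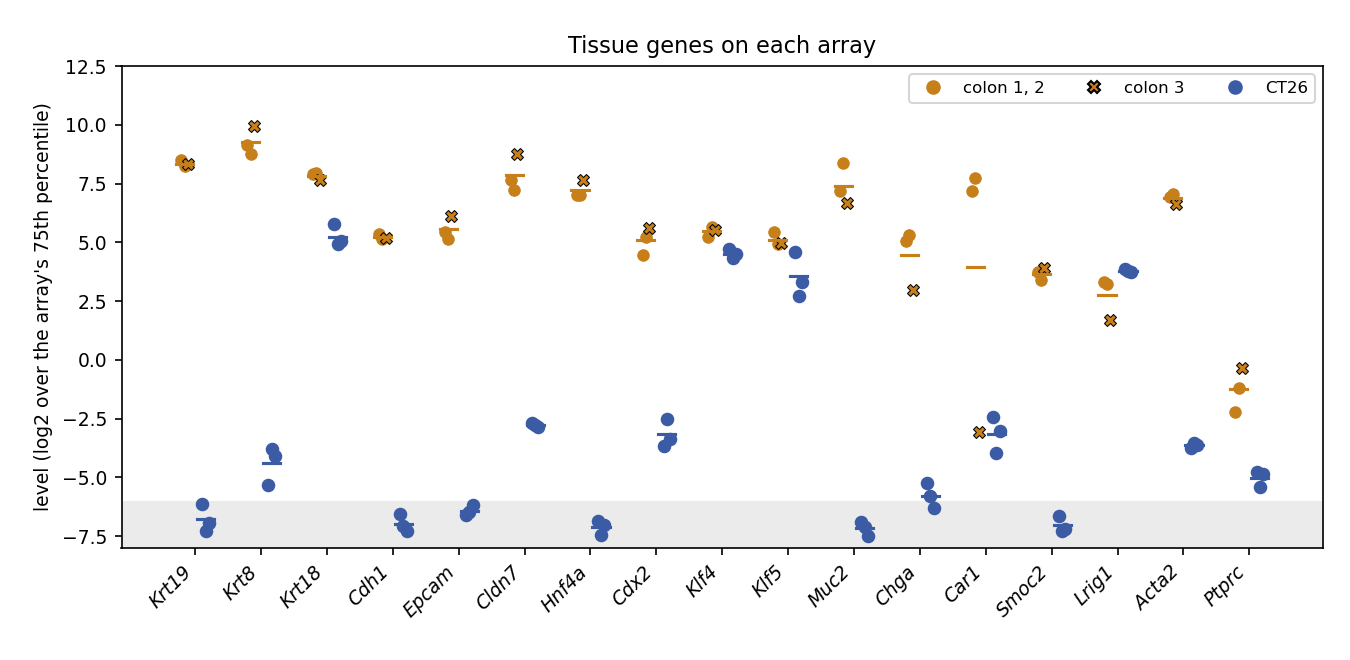
Levels (log2 over the array's 75th percentile) of epithelial, muscle and leukocyte genes on each colon and CT26 array, with horizontal bars at the group means. Grey marks levels below the lowest signal well above background on any of the 6 arrays. Krt18, Klf4, Klf5 and Lrig1 stay bright in CT26 while Krt19, Cdh1, Hnf4a and Muc2 reach background, and Car1 on colon 3 lies with CT26.

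Genes of the differentiated cell types were mostly lower. The 10 goblet cell genes all fell, with a median of -13.76 (-12.93 with bounds), the lowest of all lists. Zg16, a secreted lectin of the mucus, had levels of 8.99, 8.80 and 10.12 in colon and in CT26 it was at least 21400-fold lower (limma adjusted p = 5.46e-07). Muc2, the main gel-forming mucin, was at 7.20, 8.36 and 6.65 and was at least 6560-fold lower (limma adjusted p = 8.22e-07), and Agr2 and Clca1 were at least 9320-fold and 12900-fold lower (limma adjusted p = 5.42e-07 and 8.66e-07). Among enteroendocrine genes 5 of 6 tested fell, or 8 of 8 without colon replicate 3, and the granule proteins Chgb and Chga were at least 1280-fold and 856-fold lower (limma adjusted p = 1.82e-05 and 1.34e-05). The tuft cell genes Trpm5, a cation channel, and Alox5, a lipoxygenase, were at least 12.3-fold and 14-fold lower, 2 of 4 tested (3 of 5 without colon replicate 3).

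Calls of colonocyte genes depended on colon replicate 3. With all arrays 6 of 10 tested were lower (median -8.07, -7.38 with bounds), and without replicate 3 all 12 were (median -7.96). Slc26a3, the chloride exchanger of the colon surface, was at 3.67, 3.92 and 2.44 in colon, and CT26 was at least 394-fold lower (limma adjusted p = 2.1e-06). Car1, a carbonic anhydrase, had levels of 7.17 and 7.75 on colon replicates 1 and 2, -3.09 on replicate 3 and -2.44, -3.98 and -3.03 on the CT26 arrays. Its difference was -7.09 with all arrays (limma adjusted p = 0.0514) and -10.61 without replicate 3 (limma adjusted p = 3.92e-06). The water channel Aqp8 went the same way, with 6.44 and 6.78 against -4.61, at background, on replicate 3. It was called lower only without that array (difference -7.56, limma adjusted p = 0.00014, against -3.82 and 0.289). For Cyp2c55, a cytochrome P450, the levels were 6.06, 5.13 and, at background, -5.73 in colon and 0.55, 1.95 and 1.45 in CT26. Its difference of -0.50 (limma adjusted p = 0.894) thus became -4.28 (0.00033) without replicate 3. Over the 69 epithelial genes tested, 53 were lower and 0 higher, and 65 of 74 were lower without replicate 3.

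Stem cell genes and Wnt targets were split. Of 13 tested, 7 fell, 0 rose, and the median was -5.50 (-4.08 with bounds). Smoc2, a matricellular protein of crypt base cells, had levels of 3.72, 3.39 and 3.89 in colon and was at least 493-fold lower (limma adjusted p = 5.92e-07). Rnf43 and Nkd1, which restrain Wnt signalling and are themselves its targets, were at least 174-fold and 40.6-fold lower (limma adjusted p = 1.55e-06 and 5.27e-06). In contrast Lrig1, an inhibitor of ERBB receptors, had levels of 3.32, 3.22 and 1.70 in colon and 3.87, 3.76 and 3.73 in CT26 (difference 1.03, limma adjusted p = 0.0952). Cdca7, a chromatin factor of cycling cells, had a difference of 0.94 (limma adjusted p = 0.0186), and neither was called. With only probes well above background on all 6 arrays, the median of the list turned to 0.40, since the undetected genes then leave it.

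The promoters of the junction and keratin genes are shown because 12 of the 13 with a sequence at hand hold the letters CAGGTG or their reverse, CACCTG, the E-box that repressors of the Snai and Zeb families are known to bind. The search was chosen after the values were seen and has no test. Windows run from 250 bases before to 50 bases after a start site in RefSeq (GRCm38.p6), 5′ to 3′ on the gene's strand, and capitals mark the matches. Epcam lies at chr17:87635729-87636028 on the plus strand, with matches that begin 187 and 19 bases before the start. Cldn7, second start site, lies at chr11:69965171-69965470 on the plus strand (97 and 57 bases before), and Krt8 at chr15:102004293-102004592 on the minus strand (111 bases before). A gene was counted as holding the letters if any of its start sites had a match. The first start site of Cldn7 had none, and in Cldn3 and Vil1 the only match lay after the start.
Epcam: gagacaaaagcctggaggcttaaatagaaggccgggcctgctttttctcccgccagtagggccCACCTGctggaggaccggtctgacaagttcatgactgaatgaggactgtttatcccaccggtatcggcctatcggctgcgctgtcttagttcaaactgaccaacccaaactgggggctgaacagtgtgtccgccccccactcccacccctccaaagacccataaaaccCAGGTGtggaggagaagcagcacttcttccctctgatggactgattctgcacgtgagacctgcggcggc
Cldn7: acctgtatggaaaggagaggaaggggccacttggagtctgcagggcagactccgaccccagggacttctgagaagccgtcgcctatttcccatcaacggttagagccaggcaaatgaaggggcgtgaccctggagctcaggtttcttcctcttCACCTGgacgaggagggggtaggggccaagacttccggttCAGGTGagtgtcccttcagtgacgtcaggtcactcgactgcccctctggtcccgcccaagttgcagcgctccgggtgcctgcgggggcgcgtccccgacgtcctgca
Krt8: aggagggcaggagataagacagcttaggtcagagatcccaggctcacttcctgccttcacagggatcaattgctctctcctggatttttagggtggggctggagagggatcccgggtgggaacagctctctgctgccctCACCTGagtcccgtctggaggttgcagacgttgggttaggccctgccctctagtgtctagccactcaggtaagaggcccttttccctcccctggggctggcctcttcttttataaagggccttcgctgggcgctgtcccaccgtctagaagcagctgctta

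Of all 27025 genes with such a window 22.6% held CAGGTG on either strand, and of the genes tested 21.9%. The share was 31.9% for genes lower in CT26 and 17.3% for genes higher. It was 12 of 13 in the junction and keratin list, where Krt20 was the gene without a match and Cdh1, Krt19 and Esrp1 had no window. In the goblet cell list it was 1 of 5, in the mesenchymal list 2 of 13 and in ribosome biogenesis 0 of 12. Other motifs were searched too, 7 in all. A match is a description of these letters and not a binding site or a cause. Of the factors known to bind them, Snai2 rose 122-fold, Snai1 35.1-fold, Zeb2 14.1-fold and Zeb1 4.27-fold (limma adjusted p = 9.52e-05, 0.00199, 0.00089 and 0.0036). Zeb1 was no longer called with slide as a block, with median scaling or without any 1 CT26 array or colon replicate 1, and Snai1 was not without CT26 replicate 1. Snai1 was well above background on 2 of 3 colon arrays. Snai1, Zeb1 and Zeb2 were named after their values were seen.

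Stromal genes were lower in CT26 in 35 of 48 cases, with a median of -5.04 (-3.99 with bounds), and 2 were higher. Without colon replicate 3, 41 of 52 were lower. Smooth muscle stood lowest, with 11 of 12 genes down and a median of -8.75. On the colon arrays 8 of those 11 were above the 75th percentile. Cnn1, calponin of smooth muscle, had levels of 7.53, 7.60 and 6.62 in colon and of -6.83, -7.33 and -7.35 in CT26, at least 5890-fold lower (limma adjusted p = 5.42e-07). Myh11, the smooth muscle myosin, was at least 779-fold lower (limma adjusted p = 5.46e-07). Acta2, smooth muscle actin, fell 1450-fold (log2 standard error 0.274, limma adjusted p = 5.46e-07) and was measured on all CT26 arrays, at -3.76, -3.53 and -3.63. The exception was Smtn, smoothelin, with 5.13, 5.04 and 4.16 in colon and 4.95, 3.36 and 3.64 in CT26, where the groups overlapped (limma adjusted p = 0.217).

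Nerve and vessel genes fell as well. In enteric neurons and glia 7 of 9 were lower (median -2.49), and 11 of 12 without colon replicate 3 (median -3.23), with Vip, a neuropeptide, at least 73.0-fold lower (limma adjusted p = 5.21e-06). In endothelium 7 of 10 were lower (median -4.82, -3.84 with bounds). Egfl7, secreted by endothelial cells, was at 1.89, 2.82 and 2.61 in colon and at -5.59, -4.10 and -4.50 in CT26, a fall of 144-fold (limma adjusted p = 1.59e-05). Its value on CT26 replicate 1 is at background. Cdh5, the cadherin of vessels, was at least 10.5-fold lower (limma adjusted p = 7.87e-05). The endothelial genes that did not pass were measured on every CT26 array. Kdr, a receptor for VEGF, had 2.93, 2.03 and 4.45 in colon and 2.85, 2.50 and 2.90 in CT26, with a difference of -0.39 (limma adjusted p = 0.609) that was 0.27 without colon replicate 3 (limma adjusted p = 0.554). Pecam1 had a difference of -0.86 (limma adjusted p = 0.103). In adipocytes 4 of 5 genes were lower (median -4.32), and Cidec, of the lipid droplet, was at least 70.8-fold lower (limma adjusted p = 8.95e-05). Its colon levels were -0.48, 0.51 and, on replicate 3, 2.58.

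Fibroblast and pericyte genes were the stromal list in which members moved both ways, with 6 of 12 lower and 2 higher (median -2.78). Rgs5 of pericytes and Thy1, a surface glycoprotein, were at least 207-fold and 165-fold lower (limma adjusted p = 1.62e-06 and 2.4e-06), and Lum, a matrix proteoglycan, at least 73.8-fold (7.42e-06). Col1a2, a chain of type I collagen, rose from 3.06, 4.79 and 3.06 to 7.70, 8.08 and 8.12, by 20.1-fold (log2 standard error 0.501, limma adjusted p = 0.000309). Pdgfrb, the PDGF receptor of mesenchymal cells, rose from -0.54, -0.47 and -0.62 to 1.96, 2.24 and 2.42, by 6.72-fold (limma adjusted p = 0.000148). Both genes were above all 11 tissue arrays on each CT26 array, as were 33.5% of all genes tested. Col1a1, the other chain of that collagen, had a difference of 2.10 with overlapping groups (limma adjusted p = 0.0323).

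Immune genes were lower in 35 of 44 cases (median -5.22, -4.22 with bounds), and 32 of 44 without colon replicate 3. All 7 pan-leukocyte genes tested fell (median -5.29, -5.17 with bounds), as did all 7 of B and plasma cells (median -6.03, -4.79 with bounds). Cd52, a glycoprotein of lymphocytes, had levels of 2.44, 3.42 and 4.88 in colon and was at least 464-fold lower (limma adjusted p = 7.91e-06). Ptprc, which encodes CD45, fell from -2.22, -1.21 and -0.37 to -4.77, -5.41 and -4.85, by 13.4-fold (limma adjusted p = 0.000551), and was well above background on 1 CT26 array. Jchain of plasma cells and Ms4a1, which encodes CD20, were at least 280-fold and 80.7-fold lower (limma adjusted p = 0.000104 and 7.91e-05). In macrophages and dendritic cells 9 of 10 fell (median -5.08, -4.22 with bounds), with C1qc, a chain of complement C1q, at least 43.7-fold lower (limma adjusted p = 1.55e-05). Csf1r, the receptor for CSF1, was the one that did not pass, with 2.23, 2.75 and 3.57 in colon and 1.80, 1.37 and 1.77 in CT26 (difference -1.20, limma adjusted p = 0.0349).

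MHC class II genes, which present antigen, fell in 4 of 5 cases (median -9.22, -7.66 with bounds). H2-Ab1 was at 4.10, 5.33 and 7.56 in colon and undetected in CT26, at least 1970-fold lower (limma adjusted p = 1.32e-05). Cd74, the invariant chain, had 0.43 on CT26 replicate 1 and -2.92 and -3.03 on the others, against 2.71, 3.88 and 6.80 in colon (78.9-fold lower, limma adjusted p = 0.00397, not called without CT26 replicate 2 or 3). Ciita, the transactivator of these genes, showed the same replicate apart, with -2.27 against -5.78 and -6.04, and was not called (limma adjusted p = 0.219). In T and NK cells 5 of 8 fell (median -3.58, -2.74 with bounds), among them Cd2, an adhesion molecule, at least 33.3-fold lower (limma adjusted p = 0.000102). Probes for Cd3e, Cd4 and Lck were measured on every CT26 array, with differences of -0.90, -0.22 and 0.82 (limma adjusted p = 0.109, 0.736 and 0.168). In neutrophil genes 1 of 4 was higher and 1 lower (median 0.35), against 22.9% and 19.4% of all genes tested. Without colon replicate 3, 0 neutrophil genes were lower. S100a8, a calcium-binding protein, was well above background on no colon array and at -3.91, -3.33 and -3.59 in CT26, at least 1.91-fold higher (limma adjusted p = 0.000708), while its highest level on a tissue array of the series was -0.75. Mcpt4, a mast cell protease, was at 1.12, -4.13 and 1.58 in colon and at least 27.8-fold lower (limma adjusted p = 0.00531), a call that was lost without colon replicate 3 (0.0103).

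**Figure D3:**
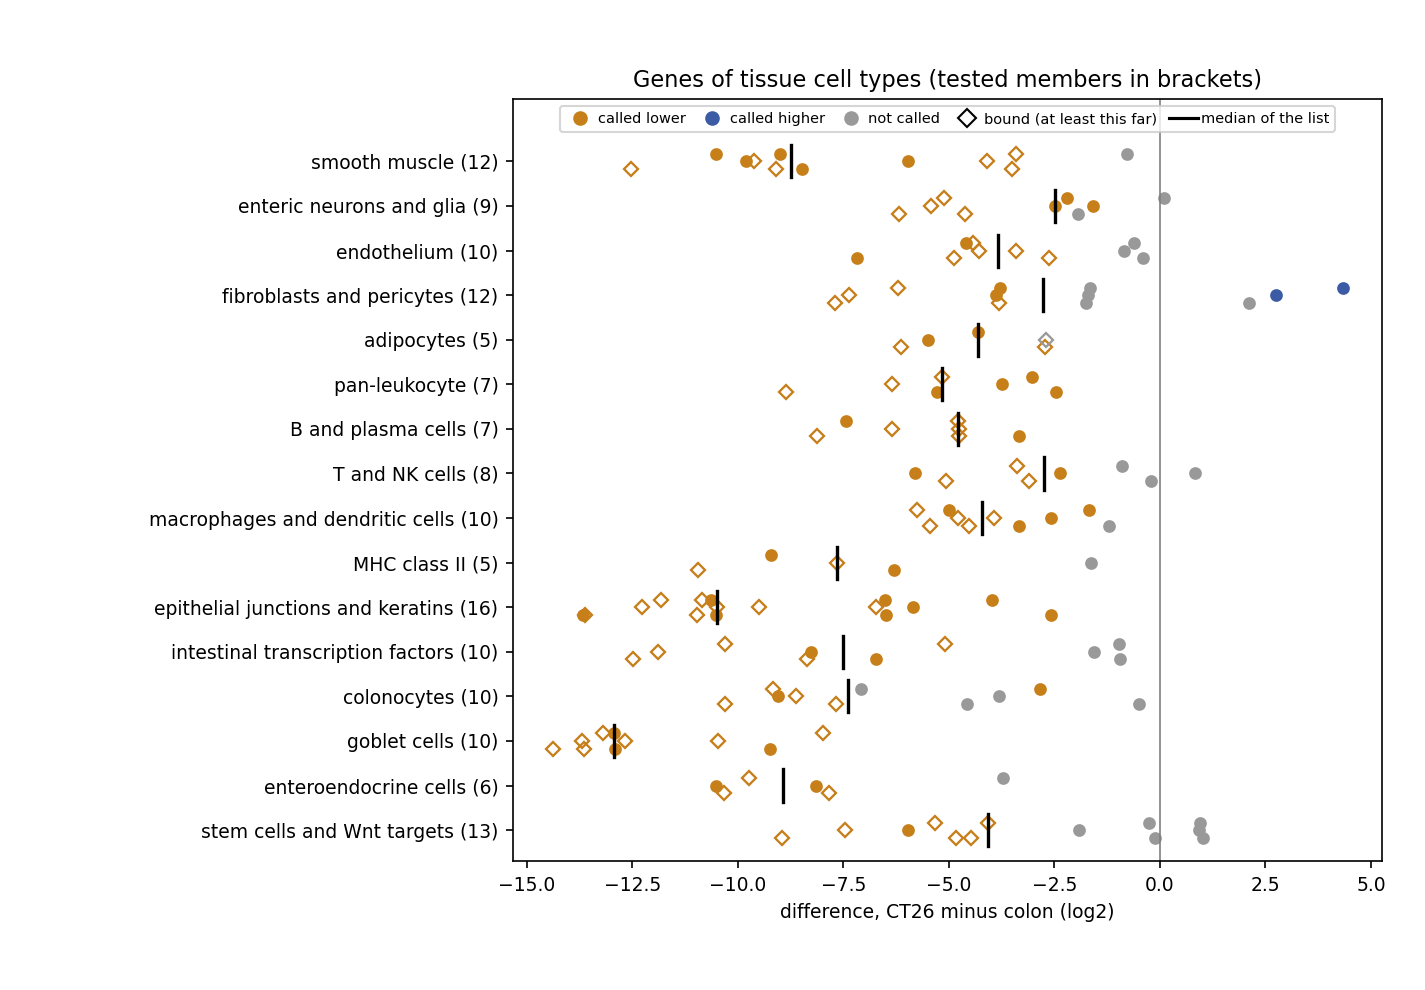
Difference CT26 minus colon (log2) of each tested gene in 16 lists of tissue cell types, with the number tested in brackets. Filled circles are measured differences, open diamonds are bounds for genes undetected in 1 group, and black bars are list medians taken with the bounds. Nearly all points lie left of 0, goblet cell genes furthest, and among these lists 2 fibroblast genes are called higher (Col1a2 and Pdgfrb).

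Genes of growth were higher in CT26, with 54 of 86 up, 4 down and a median of 2.08 against 0.36 for all genes. Without colon replicate 3, 55 were up and 2 down. Within slide 2, with its 1 CT26 array, 1 growth gene was called higher. In DNA replication 13 of 16 rose and 0 fell (median 2.51, from 1.29 to 3.11). On each CT26 array 13 of the 16 were above all 11 tissue arrays, against 33.5% of all genes tested. Mcm3, a subunit of the replicative helicase, rose from 1.98, 2.41 and 2.97 to 5.49, 5.85 and 5.35, by 8.64-fold (limma adjusted p = 0.000257). Pole, the catalytic subunit of a replicative polymerase, rose as much (8.64-fold, limma adjusted p = 0.00024). Mcm6 had a difference of 1.53 and missed the threshold (limma adjusted p = 0.0107). In mitosis 13 of 15 rose (median 2.60), among them the spindle assembly factor Tpx2 by 11-fold (limma adjusted p = 7e-05) and the checkpoint kinase Bub1 by 8.03-fold (limma adjusted p = 0.000151).

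All 15 genes of ribosome biogenesis rose, with a median of 2.64 and a range from 1.87 to 3.80. All 15 were above every tissue array, against 33.5% of all genes tested. Nop56, of the particles that modify ribosomal RNA, went from 2.93, 3.37 and 3.89 to 7.73, 6.75 and 7.09, which is 13.9-fold (log2 standard error 0.384, limma adjusted p = 0.000159). Wdr43, of the small subunit processome, rose 11.9-fold (limma adjusted p = 0.000229) and Gar1, of the pseudouridylation particles, 10.6-fold (limma adjusted p = 0.000181). With arrays centred on their median, 13 of the 15 were called and the median was 2.14. The lists of DNA replication and mitosis then had medians of 2.01 and 2.10, so these lists kept their direction.

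Serine and one-carbon metabolism had the largest gains of the growth lists, with 9 of 12 up, 0 down and a median of 4.18 (3.79 with bounds). Phgdh, Psat1 and Psph make up the serine synthesis pathway. Phgdh, its first enzyme, had levels of 0.99, 2.19 and 0.54 in colon and of 7.84, 7.39 and 7.51 in CT26, 81.1-fold higher (limma adjusted p = 2.66e-05). Psat1 followed with -0.03, 1.55 and 1.5 against 7.21, 6.77 and 6.72, 59.6-fold higher (limma adjusted p = 4.76e-05), and Psph with 0.64, 0.73 and 0.85 against 5.67, 5.26 and 5.56, 27.0-fold higher (limma adjusted p = 9.34e-06). All 3 enzymes were brighter on each CT26 array than on any of the 11 tissue arrays, as were 33.5% of all genes tested. Mthfd2, the mitochondrial folate enzyme, rose 38.6-fold (limma adjusted p = 9.08e-05) and Asns, asparagine synthetase, rose 15-fold (limma adjusted p = 0.00027). Slc7a11, the cystine transporter, was well above background on no colon array and at -0.25, -1.73 and -0.89 in CT26, at least 12-fold higher (limma adjusted p = 0.000371). Asns and Slc7a11 were picked after their values were seen.

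The promoter of Slc7a11 is shown because it holds 2 copies of TGATGNAA, the composite letters to which ATF4 dimers bind in the amino acid response. They begin 66 and 47 bases before the start site, on opposite strands, and stand in capitals. The window is chr3:50443564-50443863 on the minus strand (RefSeq, GRCm38.p6).
Slc7a11: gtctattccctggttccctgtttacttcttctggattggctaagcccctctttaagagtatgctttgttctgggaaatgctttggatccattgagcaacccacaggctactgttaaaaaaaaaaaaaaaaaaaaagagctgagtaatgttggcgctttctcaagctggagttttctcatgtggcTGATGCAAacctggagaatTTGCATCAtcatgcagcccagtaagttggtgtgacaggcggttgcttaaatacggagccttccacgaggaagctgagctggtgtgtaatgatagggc
The letters were found in 4.51% of all genes with such a window and in 3.03% of the genes tested. In the serine list 2 of 11 held them, the other being Asns, while Phgdh, Psat1, Psph and Mthfd2 did not. Another of the 7 motifs searched, CCAATCAG on either strand, was held by 5 of 11 in this list. It was held by 6.27% of the genes tested. Whether any of these letters bears on the gains was not tested. Trib3, a pseudokinase induced by amino acid stress and one of the 10 largest gains, had levels of -2.54, 1.32 and 2.92 in colon and of 7.72, 7.02 and 7.74 in CT26 (122-fold, log2 standard error 1.22, limma adjusted p = 0.00238, not called without CT26 replicate 1 or 3).

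Glycolysis and cholesterol synthesis did not follow the other growth lists. The shares over all genes tested were 22.9% higher and 19.4% lower. In glycolysis 4 of 15 rose, 1 fell, and the median of 0.42 lay near that of all genes and was -0.09 with arrays centred on their median. Eno1, enolase, and Pgk1, phosphoglycerate kinase, rose 3.83-fold and 3.64-fold (limma adjusted p = 0.0014 and 0.00113). Pfkp, the platelet isoform of phosphofructokinase, fell from 2.81, 2.89 and 4.40 to -0.08, 0.39 and -0.18, a difference of -3.32 (log2 standard error 0.471, limma adjusted p = 0.000836). In cholesterol synthesis 0 of 13 rose and 3 fell (median -0.57, from -12.31 to 0.78). Of those 3, 1 was well above background on no CT26 array, and 1 was lower without colon replicate 3. Hmgcs1 and Idi1, enzymes of the mevalonate pathway (4.10-fold and 3.88-fold lower, limma adjusted p = 0.00579 and 0.00954) were no longer called without colon replicate 3.

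Regulators of the G1 phase moved both ways. Of 13 tested, 5 rose and 2 fell (median 1.58), against 22.9% and 19.4% of all genes tested. Cdkn2b, which encodes the CDK4 inhibitor p15, was at 3.50, 3.31 and 5.46 in colon and at -6.78, -7.37 and -7.30 in CT26, undetected and at least 659-fold lower (limma adjusted p = 5.33e-06). Cdkn1c, which encodes the inhibitor p57, was at least 79.6-fold lower (limma adjusted p = 1.49e-06). Cdk4 itself rose from 4.11, 4.05 and 4.09 to 6.75, 6.93 and 6.65, by 6.47-fold (limma adjusted p = 0.000128), and Myc from 0.26, -0.02 and -0.99 to 4.40, 2.48 and 3.32, by 12.6-fold (limma adjusted p = 0.00113). Cdk6, a kinase of the same kind, rose 8.54-fold (limma adjusted p = 0.00312) and lost its call when any 1 CT26 array was left out. Cdkn2a was on the array and had no probe that passed the filter.

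Mesenchymal genes were higher in CT26. Of 17 tested, 16 rose and 1 fell (median 4.69), and 15 were above all 11 tissue arrays, against 33.5% of all genes tested. Twist2, a factor of mesenchyme, was at -4.84, -2.55 and -5.91 in colon, where 1 array was well above background, and at 3.74, 4.17 and 3.67 in CT26 (limma adjusted p = 0.000103), and the size of this rise too includes values at background. Prrx2 and Prrx1, homeobox factors of mesenchyme, rose 244-fold and 124-fold (limma adjusted p = 0.000224 and 0.000391), with Prrx1 well above background on 2 of 3 colon arrays. Snai2, a repressor of epithelial genes, rose from -2.59, -0.77 and -3.03 to 5.51, 4.12 and 4.79. The receptor Axl rose 64.8-fold (limma adjusted p = 6.78e-05), and Vim, vimentin, named after its values were seen, 25.7-fold (0.000277). Tgfbi, a matrix protein induced by TGF-beta, went the other way, from 3.19, 4.07 and 5.27 to -2.80, 0.62 and -0.53, a fall of 33.9-fold (limma adjusted p = 0.00234). Vim, Axl and the Prrx genes are also known from stromal cells.

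Inhibitors and proteases of the matrix were split. Timp1 rose from -2.58, -0.59 and -1.32 to 6.91, 4.75 and 5.06, by 135-fold (limma adjusted p = 0.000138), while Timp3, a related inhibitor bound to matrix, fell from 2.31, 2.50 and 1.82 to -3.21, -5.14 and -5.07, by 103-fold (limma adjusted p = 5.4e-05). Plaur, the urokinase receptor, rose 37.9-fold (limma adjusted p = 0.000486). Mmp2, gelatinase A, was at least 9.27-fold lower (limma adjusted p = 0.00181). In the list 5 of 11 rose and 2 fell (median 2.33). Of the oncofetal genes 3 of 6 rose and 0 fell (median 1.32), and without colon replicate 3 it was 3 of 10 with 2 lower (median 0.21). Igf2bp1, an RNA-binding protein of embryonic tissue, was at -6.91, -3.51 and -5.79 in colon, where 1 of 3 arrays was well above background, and at 3.42, 3.39 and 2.93 in CT26 (limma adjusted p = 8.82e-05), so the size of its rise rests on values at background. The chromatin proteins Hmga2 and Hmga1 rose 33.2-fold and 5.72-fold (limma adjusted p = 0.000134 and 0.000811).

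**Figure D4:**
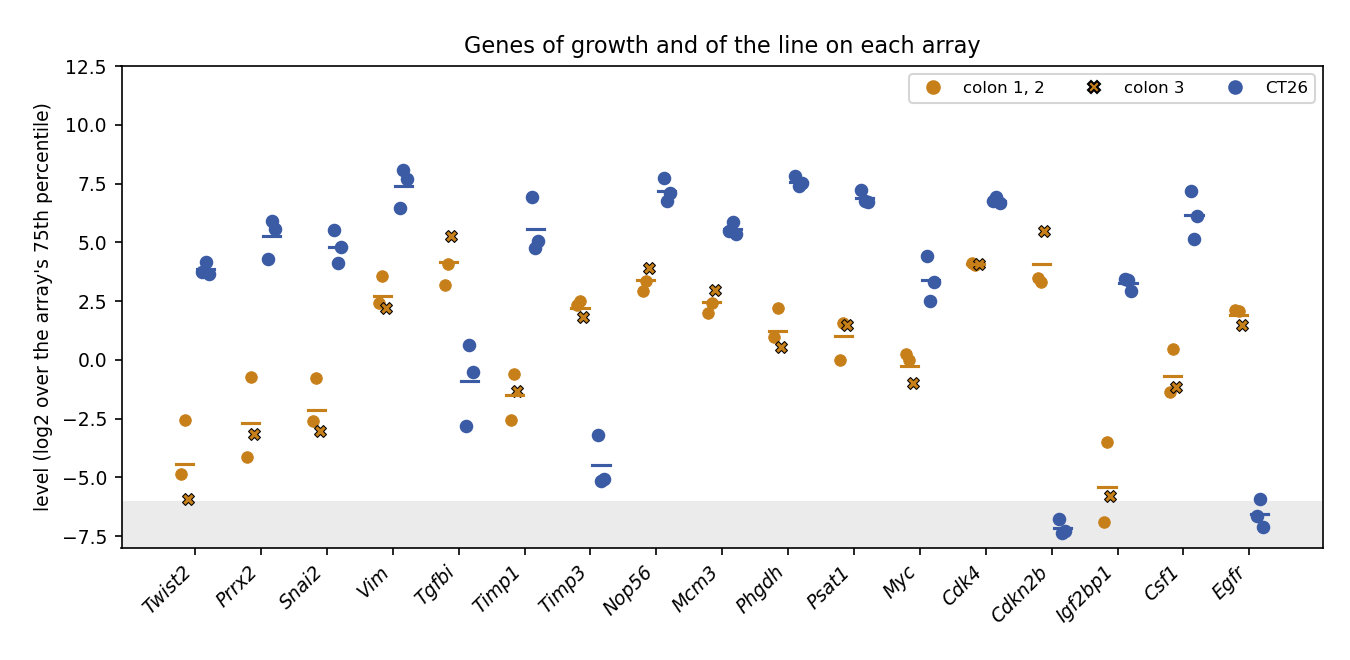
Levels (log2 over the array's 75th percentile) of genes of growth and of the line on each colon and CT26 array, drawn as in the plot of tissue genes. Twist2, Prrx2, Snai2 and Igf2bp1 go from below 0 in colon to above 2.9 in CT26, Nop56 and Cdk4 rise from an already bright level, and Timp3, Cdkn2b and Egfr fall.

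Receptor tyrosine kinases fell more often than they rose, with 9 of 14 lower and 2 higher (median -2.13). Egfr had levels of 2.12, 2.07 and 1.47 in colon and of -6.64, -5.94 and -7.12 in CT26, undetected and at least 143-fold lower (limma adjusted p = 3.09e-06). Erbb3 was at least 22.8-fold lower (limma adjusted p = 4.7e-05), Mst1r, the receptor for macrophage-stimulating protein, at least 373-fold (8.31e-07), and Kit at least 126-fold (1.44e-05). Ddr2, a collagen receptor of mesenchymal cells, rose 19.6-fold (limma adjusted p = 0.000393), and Epha2, an ephrin receptor, 15-fold (0.00384), although Epha2 was no longer called with slide as a block or without colon replicate 2, CT26 replicate 1 or CT26 replicate 3.

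Ligands that act on immune and vascular cells rose in 6 of 12 cases and fell in 1 (median 2.11). Csf1, the growth factor of macrophages, went from -1.36, 0.46 and -1.16 to 7.20, 5.13 and 6.11, by 114-fold (limma adjusted p = 0.000121), and Cxcl10, a chemokine for T cells, rose 53.1-fold (limma adjusted p = 0.000305). Vegfa rose 6.25-fold (limma adjusted p = 0.000665). Il6 was uneven between replicates, with 1.84 on CT26 replicate 1 and -3.58 and -2.30 on the others, at least 9.16-fold higher (limma adjusted p = 0.00895). Il33, an alarmin, likewise had -3.29 on replicate 1 and, at background, -6.83 and -7.33 on the others (34.0-fold lower, limma adjusted p = 0.0064). The size of its fall thus includes values at background. The calls of Il6 and Il33 were lost without colon replicate 3 (0.0109 and 0.0147). Cd274, which encodes PD-L1, had -1.62, -0.44 and -0.70 in colon and 1.43, -0.99 and -0.43 in CT26, with overlapping groups (limma adjusted p = 0.267).

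In the interferon response and MHC class I, 2 of 15 genes rose with all arrays and 6 without colon replicate 3 (median 0.96 and 1.69). The shares over all genes tested were 22.9% and 22.2%, so with all arrays the list was called higher less often than genes at large. Oas1a and Ifit3, antiviral effectors, rose 4.61-fold and 9.42-fold (limma adjusted p = 0.00202 and 0.00355). Isg15, a ubiquitin-like protein, was at 0.94, 5.35 and 5.29 in colon and at 8.27, 7.96 and 7.43 in CT26 (limma adjusted p = 0.0174, and 0.0098 without replicate 3). Ifit1 had a difference of 3.14 (0.0134, and 0.0079 without it). B2m, the light chain of class I, had a difference of 0.96 (0.243) that was 1.69 without replicate 3 (0.00734), and the heavy chain H2-K1 one of -0.74 (0.211), all from limma. The interferon-inducible DNA sensors Ifi204 and Ifi203, which are not in this list, were among the 10 largest gains, 131-fold and 129-fold (limma adjusted p = 0.000246 and 0.000504).

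**Figure D5:**
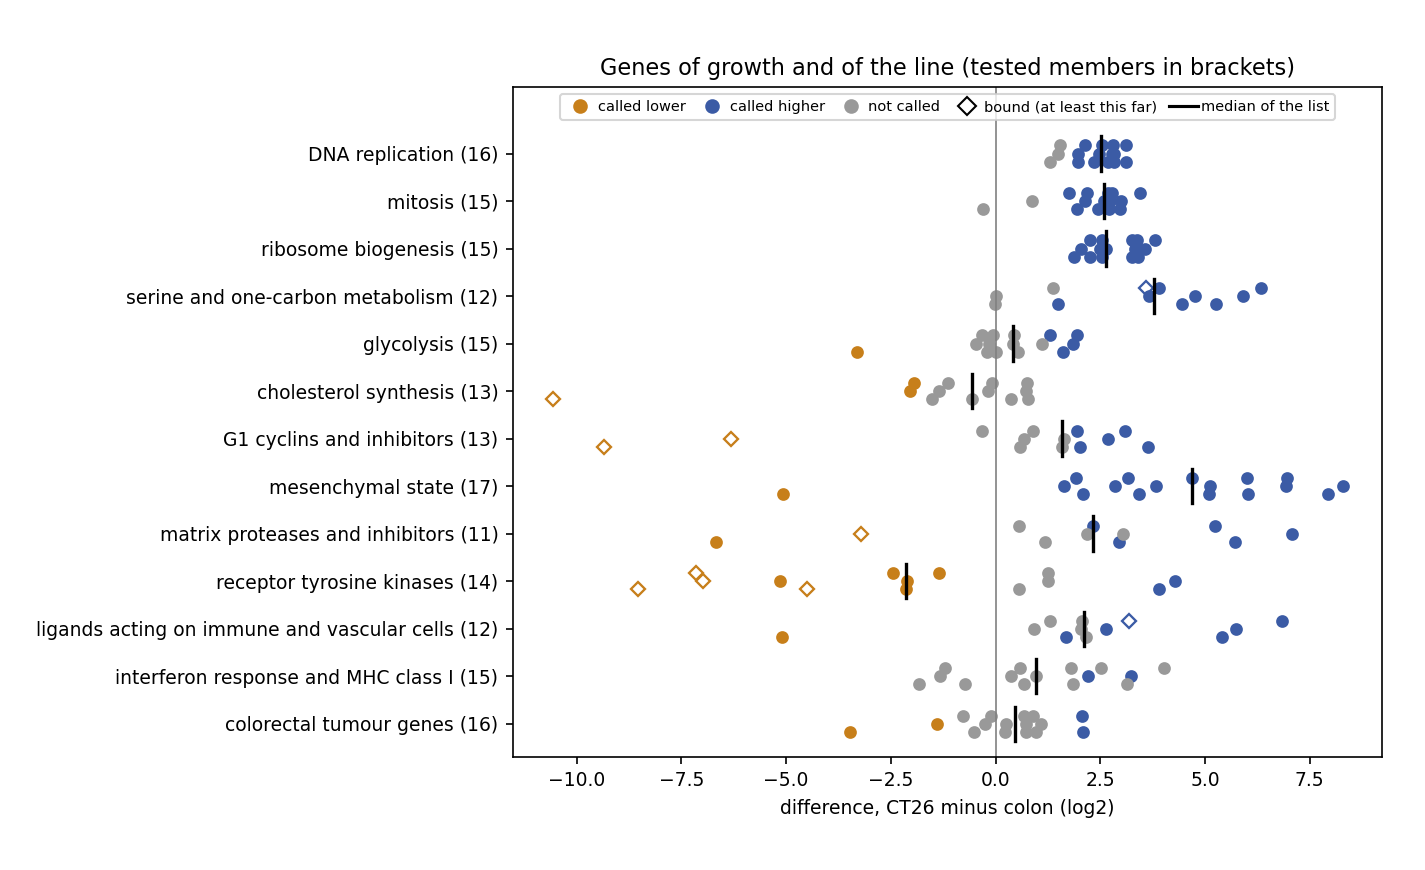
Difference CT26 minus colon (log2) of each tested gene in 13 lists of growth and of the line, drawn as in the plot of tissue cell types. DNA replication, mitosis and ribosome biogenesis form narrow groups near 2.5, the mesenchymal list reaches 8.29, and the G1 list holds genes far to the left (Cdkn2b and Cdkn1c).

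Genes recurrently altered in colorectal tumours moved little, with 2 of 16 higher and 2 lower (median 0.46, and -0.04 with arrays centred on their median). Trp53 rose 4.17-fold (limma adjusted p = 0.000956) and Nras 4.27-fold (0.00297), a call lost with median scaling and without any 1 array other than colon replicate 3. Tcf7l2, the Wnt effector of the intestine, fell from 2.43, 1.16 and 3.18 to -1.72, -0.77 and -1.17, by 11.1-fold (limma adjusted p = 0.00129), and Ctnnb1, beta-catenin, 2.64-fold (0.00986, lost without colon replicate 3, 0.0154). Apc had a difference of -0.51 (limma adjusted p = 0.158). The arrays measure RNA levels and not mutations. Posterior Hox genes, which mark the hind part of the body axis, could be tested for 4 of 14 with all arrays, with 1 lower, and for 11 without replicate 3, with 9 lower and a median of -4.12. Hoxd11 was at least 8.50-fold lower (limma adjusted p = 0.00501). Hoxa10 had 0.69, 0.83 and, at background, -5.82 in colon and -1.45, -0.83 and -1.53 in CT26. Its difference of 0.16 (limma adjusted p = 0.942) was -2.03 without replicate 3 (0.00167).

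Among genes measured on every array of both groups, the 10 largest gains also included Rnd1 (123-fold, limma adjusted p = 0.000195), Pcdh19, a protocadherin (109-fold, 3.19e-05), and Gm16430 (106-fold, 4.21e-06). The 10 largest losses, besides Cldn7 and Acta2, were those of Muc13, Guca2a, Atp9a, Myo1d, Crip1, Acp5, Ceacam2 and Smim24, from 1850-fold for Smim24 to 8310-fold for Muc13. Muc13 is a mucin of the cell surface, Guca2a encodes the gut peptide guanylin and Ceacam2 is an adhesion molecule. All 10 were below every tissue array on each CT26 array, as were 22.2% of all genes tested.

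Some genes were detected in CT26 and in no tissue of the series. On every CT26 array and on none of the 11 tissue arrays, 150 genes were well above background, and 276 when only the colon arrays were set against it, whereas 1406 genes were on every colon array and no CT26 array. These counts rest on the detection flag alone, and the lowest level that passed differed by array (-3.617 on colon replicate 3, -6.067 on CT26 replicate 3). Some of the 150 were not called as different from colon, with bounds down to 1.0-fold, and some overlapped tissue levels. Those of the 150 with the largest differences included several transcription factors of embryonic patterning, picked out after the values were seen. Genes of other kinds stood among them, such as Adh7 (at least 74.8-fold higher) and Baalc (at least 52.9-fold). Irx2 had levels of 1.24, 2.12 and 1.96 in CT26 and was at least 79.6-fold higher than in colon. Tfap2a, with 0.74, 0.43 and 0.66, was at least 35.6-fold higher, and Tbx15 and Foxd1 were at least 30.4-fold and 27.8-fold higher. Sox2, which was not among the largest, was at -1.59, -1.12 and -1.61, at least 8.58-fold higher. Across all genes tested, CT26 was above every tissue array for 5013 (33.5%) and below every tissue array for 3317 (22.2%).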

How the data were processed

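RNA of each sample was hybridized to 1 Agilent SurePrint G3 Mouse 8x60K array in one color. The authors deposited the scanner output (Feature Extraction 10.7.3.1, probe positions in mm9), in which each spot has an intensity corrected for background. A deposited table of log2 values, normalized by the authors, served as an alternative. Its 28 further per-sample columns and its fold changes and p-values for the authors' comparisons were not used.

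Control and outlier spots were left out, log2 intensities were set relative to the 75th percentile of their array, and spots of a probe were averaged. Of 55681 probes, 26582 were named by RefSeq accession, 2602 by current symbol and 492 by an older symbol. Probes were tested if either group had them well above background on all of its arrays, by a two-class limma fit (version 3.58.1, R 4.3.3, moderated by eBayes) of the colon and CT26 arrays, with Benjamini-Hochberg adjustment over the 29398 probes. Of these, 17072 had an unadjusted p under 0.05. Gene probes called in opposite directions occurred for 23 genes, none of them named here. The script was tested on simulated data. Values of some genes are not reported here.

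The members and lists were chosen with earlier results of these data known. Named genes are at most 6 per list (the furthest past the thresholds in either direction and those that went against their list), genes the study names and the 10 largest in each direction, apart from those marked in the text. Groups came from the sample labels. Alternatives were the authors' table, quantile and median scaling, normexp (offset 50), other filters, slide or replicate block, all 14 arrays in the fit, an intensity trend, other thresholds and leaving out each array.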

Additional observations from a re-analysis of the deposited data

How the results depend on the processing

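Dim signals limit the losses more than the gains. With probes well above background on all 6 arrays, 1093 genes were lower, and the stromal, immune and epithelial genes lower were 12, 9 and 12, since undetected genes then drop out. Of genes higher, 1942 were found with median scaling, 5136 at an adjusted p of 0.05 with no minimum fold, 2129 within slide 1 and 189 within slide 2. Within slide 2, where CT26 had 1 array assumed to vary like colon, 1063 genes were lower, with 22 stromal and 12 immune genes lower and 1 growth gene higher. Against the colon arrays alone, 276 genes were on every CT26 array.

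Leaving out 1 array, genes higher ranged from 1964 to 3517 and genes lower from 2412 to 3666, both highest without colon replicate 3 and lowest without CT26 replicate 3. Genes higher also moved over 1.5 times without colon replicate 1 (2257) and CT26 replicate 2 (2131). Of 124 named genes called, 108 kept the call whichever array was left out, and 111 in each setting that used all arrays. Ctnnb1 lost it for each array, Cdk6 for each CT26 array, Idi1, Nras, Zeb1, Hoxd11, Mcpt4, Hmgcs1, Il33 and Il6 for 3 or more, and Epha2, Trib3, Cd74, Ifit3, Mmp2 and Snai1 for 1 to 3. Stromal genes lower ranged from 31 to 41, immune from 26 to 33, epithelial from 53 to 65, and growth genes higher from 46 to 55. Genes on CT26 arrays alone ranged from 159 to 209 without 1 CT26 array, a count that can only stay at or rise above the 150 with all arrays. With a replicate block, 2387 genes were higher and 2720 lower (stromal 33, immune 32, epithelial 53, growth 50). The arrays share only a number, since deviations of same-numbered colon and CT26 arrays correlated at -0.098, 0.024 and -0.085. Among named genes it ended the calls of Hmgcs1, Idi1 and Ctnnb1 and no other. With slide as a block Ctnnb1, Epha2, Idi1, Il33, Il6 and Zeb1 were not called, with quantile scaling Hoxd11, Il33 and Mcpt4, with median scaling Il6, Nras and Zeb1, and in the authors' table Alox5, Hoxd11, Il33, Il6, Mcpt4, Mmp2 and S100a8.

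The sign turned for Hoxa10 (0.16 with all arrays), at -0.29 in the authors' table, -0.34 with median scaling, -0.77 with normexp, -0.29 with slide as a block, -2.31 within slide 1, -2.03 without colon replicate 3 and -0.05 without CT26 replicate 2, its range when leaving out 1 array reaching 1.29. It turned for Kdr within slide 1 (0.85) and without colon replicate 3 (0.27, down to -0.94 without colon replicate 2), for Cd4 likewise (0.54 and 0.33, down to -0.52), and for Cyp2c55 within slide 2 (1.78) and without colon replicate 1 (1.61) or 2 (1.15), against -4.28 without colon replicate 3. The median of the neutrophil list was -0.15 with median scaling, and that of the stem cell list 0.40 with probes well above background on all 6 arrays. Apart from colon replicate 3, whose values show its part in the changes without it, the cause was not tested.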
